A study of Homo sapiens with 12 samples.

Results

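The genes described here encode the heat shock proteins of the cytosol and mitochondria, with the cochaperones that work with them and the heat shock transcription factors. Members were taken by symbol, from 7 patterns covering the DNAJA, DNAJB and DNAJC families, the HSPA and HSPB families, HSPD1, HSPE1 and HSPH1, the HSF factors, BAG1 to BAG6 and the CCT subunits. HSPA5, DNAJB9, DNAJB11, DNAJC3 and DNAJC10, chaperones of the endoplasmic reticulum, were left out by the rule. Of 56269 rows in the count table, 82 symbols matched and 65 of them reached the required 120 counts over the 12 libraries. All 65 also passed the filter on low counts and were tested.

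RNA was sequenced from C4-2 cells, an established castration-resistant prostate cancer line of the LNCaP lineage. The 4 groups of 3 libraries each were paxillin siRNA with DHT, paxillin siRNA with vehicle, nonspecific siRNA with DHT and nonspecific siRNA with vehicle. Transfection lasted 48 h in every group, serum was then withdrawn for 12 h, and cells received 2.5 nM dihydrotestosterone (DHT, an androgen) or ethanol for 24 h, per the labels. The cells of all groups were thus serum-starved and transfected, and they represent 1 cell line. Paxillin (PXN) is a focal adhesion adaptor protein. Nothing in the labels says that the numbered libraries came from separate cultures, so the p-values rest on the spread among libraries, which may be technical.

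HSP70 proteins bind exposed hydrophobic stretches of unfolded proteins in a cycle driven by ATP. J-domain proteins (DNAJ) deliver clients and stimulate ATP hydrolysis, while HSP110 and BAG proteins release the nucleotide and with it the client. The chaperonins HSPD1 with HSPE1 in mitochondria and CCT in the cytosol fold clients inside a closed chamber, small HSPs hold unfolded proteins against aggregation, and HSF1 switches on many of these genes under proteotoxic stress. In prostate cells the androgen receptor is itself a client of HSP70 and HSP90.

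The promoters of 6 members are shown because HSF1 binds arrays of the unit GAA and its inverse, and because these genes stand for the HSP70, HSP60 and HSP40 families (HSPA8, HSPD1, DNAJA1, DNAJB1) and for members called for DHT or for paxillin siRNA (BAG2, HSPB8). They were picked only from promoters with a match to heat shock units, which 17 of the 57 members with a promoter held. BAG3 and HSPH1, also called for DHT, had a promoter without a match. Each runs from 250 bases before to 50 after the transcript start in RefSeq (GRCh38.p14), 5′ to 3′ on the gene's strand, with matches to heat shock units in capitals.
HSPD1, chr2:197499791-197500090, minus strand: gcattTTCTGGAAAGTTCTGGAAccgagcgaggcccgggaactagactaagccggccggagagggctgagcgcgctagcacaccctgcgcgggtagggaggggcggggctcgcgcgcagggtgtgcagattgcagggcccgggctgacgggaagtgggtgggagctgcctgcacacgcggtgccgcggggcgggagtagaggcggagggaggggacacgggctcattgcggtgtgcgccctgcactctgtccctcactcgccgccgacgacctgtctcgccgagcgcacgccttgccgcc
HSPA8, chr11:123062087-123062386, minus strand: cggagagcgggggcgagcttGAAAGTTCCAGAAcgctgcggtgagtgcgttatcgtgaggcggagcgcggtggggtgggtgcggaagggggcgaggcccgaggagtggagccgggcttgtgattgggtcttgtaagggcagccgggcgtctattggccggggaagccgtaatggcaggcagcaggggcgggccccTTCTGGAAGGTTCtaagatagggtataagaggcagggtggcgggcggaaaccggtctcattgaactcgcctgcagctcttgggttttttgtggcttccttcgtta
DNAJA1, chr9:33025023-33025322, plus strand: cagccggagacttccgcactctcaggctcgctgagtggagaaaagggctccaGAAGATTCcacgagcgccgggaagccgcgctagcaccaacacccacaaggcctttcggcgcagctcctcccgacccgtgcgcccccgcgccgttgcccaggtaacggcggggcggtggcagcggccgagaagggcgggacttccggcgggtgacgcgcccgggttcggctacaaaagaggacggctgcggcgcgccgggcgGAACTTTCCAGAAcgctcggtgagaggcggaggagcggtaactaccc
DNAJB1, chr19:14518348-14518647, minus strand: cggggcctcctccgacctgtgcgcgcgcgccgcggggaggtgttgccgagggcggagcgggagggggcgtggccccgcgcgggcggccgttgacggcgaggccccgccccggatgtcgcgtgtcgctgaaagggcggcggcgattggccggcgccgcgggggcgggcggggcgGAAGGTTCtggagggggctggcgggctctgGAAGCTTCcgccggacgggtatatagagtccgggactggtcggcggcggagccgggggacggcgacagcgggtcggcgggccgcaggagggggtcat
BAG2, chr6:57172076-57172375, plus strand: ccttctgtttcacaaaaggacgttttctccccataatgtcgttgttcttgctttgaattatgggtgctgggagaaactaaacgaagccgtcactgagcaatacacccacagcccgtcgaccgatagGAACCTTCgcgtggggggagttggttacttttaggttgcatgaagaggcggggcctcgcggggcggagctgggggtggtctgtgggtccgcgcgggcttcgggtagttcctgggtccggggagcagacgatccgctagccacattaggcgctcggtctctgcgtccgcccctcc
HSPB8, chr12:119178681-119178980, plus strand: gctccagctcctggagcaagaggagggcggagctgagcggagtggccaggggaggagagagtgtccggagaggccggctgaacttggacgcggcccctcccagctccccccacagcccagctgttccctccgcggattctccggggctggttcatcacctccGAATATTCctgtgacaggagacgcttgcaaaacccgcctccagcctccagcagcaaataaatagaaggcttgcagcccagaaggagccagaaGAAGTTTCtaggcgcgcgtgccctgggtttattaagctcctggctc

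A RefSeq promoter was found for 57 of the 65 members. The heat shock element of 3 units, spelled as the alternating units GAA, TTC and GAA, or TTC, GAA and TTC, with NN between neighbours, and searched on both strands, lay in the promoters of 5 of the 57 (8.77%), namely DNAJA1, DNAJB6, HSPA6, HSPA8 and HSPD1. Over all 27305 genes with a promoter in the same table, 0.608% held it. HSPA8 held the element at 2 places, from 230 to 218 and from 55 to 43 bases before the start, and in HSPD1 a pair of overlapping copies spanned 245 to 228 bases before it. Looser pairs of units, GAA and TTC in either order with NN between them, which the longer element contains, were present in 17 of the 57 (29.8%), BAG2 and HSPB8 among them, against 16.2% of all genes. The palindromic androgen response element, AGAACA and TGTTCT with NNN between them, was in 0 of the 57 and in 1 of the 35116 promoters. These are matches of letters in a window of 300 bases and say nothing of binding. HSPD1 and HSPE1 lie head to head on chromosome 2 and share the region between their starts.

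**Figure D1:**
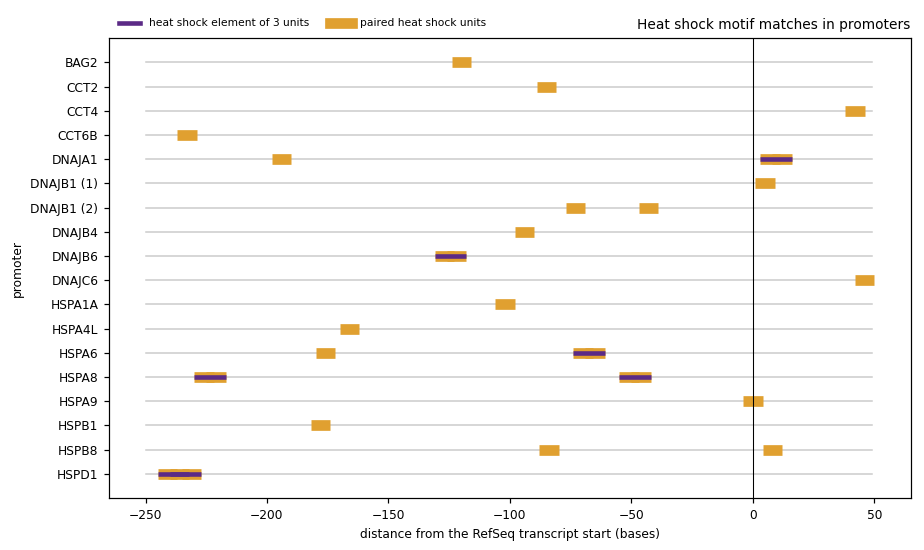
Heat shock motif matches in member promoters, with distance from the RefSeq transcript start in bases on the horizontal axis and 1 row per promoter (2 for DNAJB1). Thin purple bars are elements of 3 units (5 genes) and wide yellow bars are paired units (17 genes); grey lines mark the window searched.

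Library totals ran from 11944906 to 32040465 counts, the lowest in nonspecific vehicle replicate 1, and the 65 genes took up 1.05% to 1.19% of each library. PXN had 14.2, 11.3 and 9.36 CPM, the unit of counts scaled to library size, with paxillin siRNA in DHT and 16.7, 12.4 and 12.3 CPM with paxillin siRNA in vehicle, against 136, 121 and 122 CPM with nonspecific siRNA in DHT and 149, 139 and 151 CPM with nonspecific siRNA in vehicle. The knockdown was 10.8-fold in DHT and 10.6-fold in vehicle. Of the markers of cell identity, 10 of 10 luminal and androgen axis genes were expressed, summing to between 7010 and 17900 CPM in a library. The 3 basal markers summed to at most 0.637 CPM and the 3 immune markers to at most 0.164 CPM, with 1 immune gene at 0 throughout. The 3 endothelial markers summed to between 8.3 and 15 CPM in a library and the 4 fibroblast markers to between 24.8 and 47.9 CPM. In each of these lists 1 marker was expressed above the filter. The highest level of a single gene was 15 CPM in the endothelial and 47.6 CPM in the fibroblast list.

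Per length, HSPA8, the constitutive cytosolic HSP70, had the highest level among the members, at 644 ± 63.7 CPM per kb of exonic length in paxillin DHT and 561 ± 16.4 CPM per kb in nonspecific vehicle (SD, n = 3 each). HSPB1 (HSP27) followed at 373 ± 72.9 CPM per kb in paxillin DHT and 340 ± 35 CPM per kb in nonspecific vehicle, and HSPD1 (HSP60) at 221 ± 12.2 CPM per kb in paxillin DHT and 170 ± 11 CPM per kb in nonspecific vehicle. CCT3, DNAJA1 and CCT6A came next. In nonspecific vehicle CCT6A (76.2 ± 4.56), CCT8 (75.7 ± 4.88) and CCT7 (75.6 ± 1.4 CPM per kb) differed by less than their spread, and CCT2 followed at 72.9 ± 0.997 CPM per kb. For scale, HSP90AB1 stood at 841 ± 96.8 CPM per kb in paxillin DHT and 798 ± 1.85 CPM per kb in nonspecific vehicle. HSPE1, the partner of HSPD1, had 19.8 CPM per kb in paxillin DHT and 14.6 CPM per kb in nonspecific vehicle, and 11.7% of the 50-base words of its transcripts also occur in other genes.

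The stress-inducible HSP70 genes were close to silent. HSPA1A had 5 to 33 counts and HSPA6 had 3 to 25 counts in a library, and they were the members just inside the limit of 120 counts, with 166 counts in all for HSPA6 and 171 for HSPA1A. Just outside it were DNAJC28 with 100 and HSPB6 with 75 counts. HSPA1B, HSPA1L, HSPA7, HSPB3 and HSPB7 were at 0 in all 12 libraries, where 3 counts over the 12 would equal 0.00985 CPM. HSPA1A shares 71.3% of its 50-base words with HSPA1B, and HSPA6 shares 45.5% with HSPA7, so reads of these copies may have been split or discarded by the authors' counting and their low values are uncertain. DNAJC15, an inner mitochondrial membrane J protein, had 2 counts in all and DNAJA4 had 12. The other 8 of the 17 symbols left out had between 2 and 57 counts.

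DHT raised more of these genes than it lowered. With paxillin siRNA, 23 members rose and 7 fell at an adjusted p under 0.05 (edgeR quasi-likelihood test, Benjamini-Hochberg adjustment over 16115 genes), where 20.1% of all genes tested rose and 17.9% fell, or 38% in either direction. With nonspecific siRNA, 27 members rose and 7 fell, where 21.6% of all genes tested rose and 18.9% fell, or 40.5% in either direction. The rises thus made up 35.4% of the members with paxillin siRNA and 41.5% with nonspecific siRNA, and the falls 10.8% with each. The median log2 fold change of the members was 0.11 with paxillin siRNA and 0.14 with nonspecific siRNA, beside medians over all genes of -0.008 and -0.009. Most changes were small. In bulk RNA, fewer cells of a type and less RNA per cell cannot be told apart.

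Both DHT comparisons use separate libraries, and 20 members rose in both, which is 87% of the rises with paxillin siRNA and 74.1% of those with nonspecific siRNA. Over all genes tested the shared rises were 79.7% of those with paxillin siRNA and 74% of those with nonspecific siRNA, and the shared falls 72.4% of those with paxillin siRNA and 68.5% of those with nonspecific siRNA. CCT6B, DNAJB4, DNAJC13, HSPA12A and HSPA4L fell in both, 71.4% of either list, and 0 members moved in opposite directions. DNAJB2, DNAJC24 and HSPA2 were called higher with paxillin siRNA alone, and CCT3, CCT7, DNAJA3, DNAJC30, HSF1, HSPA1A and HSPB1 with nonspecific siRNA alone. None of these differences passed the interaction test at the end. The scaling of the libraries bears on this balance. With upper-quartile scaling the share of rises among all called genes was 36.5% instead of 52.8% with paxillin siRNA and 41% instead of 53.3% with nonspecific siRNA. Under that scaling 13 members rose and 8 fell with paxillin siRNA (20% and 12.3% of members), where 14% of all genes rose and 24.4% fell. With nonspecific siRNA 15 rose and 11 fell (23.1% and 16.9% of members), where 16.8% of all genes rose and 24.2% fell. The member medians were then 0.02 with paxillin siRNA and 0.07 with nonspecific siRNA, beside medians over all genes of -0.094 with paxillin siRNA and -0.082 with nonspecific siRNA. The calls lost under it with paxillin siRNA were CCT2, CCT4, CCT5, CCT6A, DNAJB1, DNAJB2, DNAJC2, DNAJC11, DNAJC24 and HSPD1. With nonspecific siRNA they were CCT2, CCT3, CCT7, DNAJA1, DNAJA2, DNAJA3, DNAJB14, DNAJC11, DNAJC30, HSPA1A, HSPB1 and HSPE1. Without paxillin DHT replicate 1, 14 members rose with paxillin siRNA (21.5%), where 16.9% of all genes rose. In either direction 29.2% of members and 31.1% of all genes were then called.

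**Figure D2:**
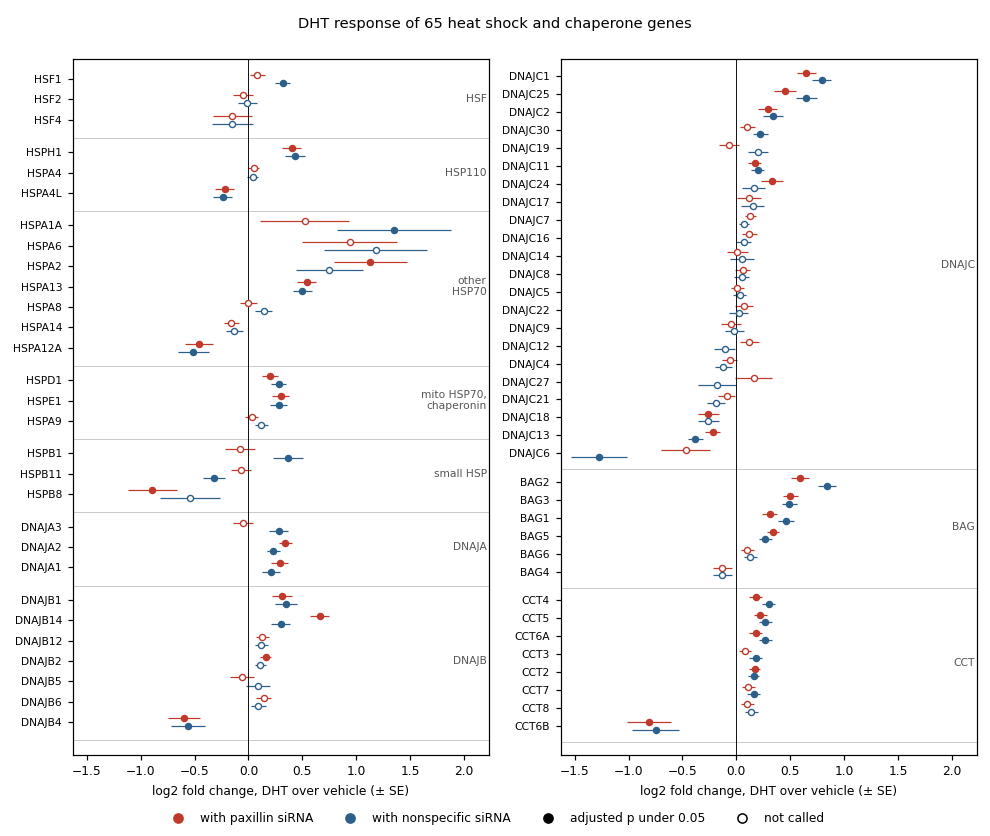
Log2 fold change of DHT over vehicle with its SE (horizontal axis) for each of the 65 members, by family, with paxillin siRNA in red and nonspecific siRNA in blue. Filled points passed an adjusted p of 0.05 (30 with paxillin siRNA and 34 with nonspecific siRNA); most filled points lie to the right of 0, with BAG2 and DNAJC1 among the farthest.

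Among the transcription factors, HSF1 had 150.2, 134 and 135 CPM in paxillin DHT libraries against 129.8, 135 and 131 CPM in paxillin vehicle libraries, and 154, 142 and 140.0 CPM in nonspecific DHT libraries against 123, 105 and 122 CPM in nonspecific vehicle libraries. The groups overlapped with paxillin siRNA and did not with nonspecific siRNA. HSF1 rose with DHT under nonspecific siRNA (log2 fold change 0.32 ± 0.07 SE, adjusted p = 0.0013), and under paxillin siRNA its value was 0.08 ± 0.07 (adjusted p = 0.366). HSF2 and HSF4 were not called, with log2 fold changes of -0.05 and -0.15 under paxillin siRNA and -0.01 and -0.15 under nonspecific siRNA.

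HSPA8, at the centre of the HSP70 cycle, was not called for DHT. It had 3456, 3069.9 and 2845 CPM in paxillin DHT and 3368, 2979 and 3038 CPM in paxillin vehicle, with a log2 fold change of -0.00 ± 0.08. With nonspecific siRNA it had 3203, 2948 and 2868 CPM in DHT and 2805, 2704 and 2648 CPM in vehicle, a log2 fold change of 0.14 ± 0.08 (adjusted p = 0.174, and 0.0445 with the replicate number as a block). HSPA4, a further HSP110 protein, was not called either, at 0.05 ± 0.05 with paxillin siRNA and 0.04 ± 0.05 with nonspecific siRNA.

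HSPH1, the HSP110 nucleotide exchange factor also called HSP105, had 462, 374 and 391 CPM in paxillin DHT libraries against 337, 295 and 300.4 CPM in paxillin vehicle libraries. With nonspecific siRNA it had 413, 328 and 329 CPM in DHT and 283, 255 and 254 CPM in vehicle. DHT libraries lay above vehicle libraries under both siRNAs, by 0.40 ± 0.09 (adjusted p = 0.00278) with paxillin siRNA and 0.43 ± 0.09 (adjusted p = 0.00131) with nonspecific siRNA. The related HSPA4L, best known from testis, went the other way. It had 31.8, 29.9 and 25.4 CPM in paxillin DHT against 37.7, 31.9 and 32.1 CPM in paxillin vehicle, and 40.8, 40.0 and 37.1 CPM in nonspecific DHT against 47.1, 47.7 and 44.8 CPM in nonspecific vehicle. Its falls of -0.22 ± 0.09 with paxillin siRNA (adjusted p = 0.0499) and -0.24 ± 0.09 with nonspecific siRNA (adjusted p = 0.0304) were near the threshold. The call with paxillin siRNA was lost in 11 of the alternatives listed below, up to an adjusted p of 0.228 without paxillin vehicle replicate 1, and that with nonspecific siRNA when nonspecific vehicle replicate 1 or 2, or DHT replicate 2 or 3 of that siRNA, was left out (adjusted p from 0.0616 to 0.121).

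Of the 10 J proteins of classes A and B, most of which feed clients to cytosolic HSP70, 5 rose and 1 fell under each siRNA. Over all genes tested, 20.1% rose and 17.9% fell with paxillin siRNA, and 21.6% rose and 18.9% fell with nonspecific siRNA. DNAJB1, the canonical HSP40, had 158, 144 and 119 CPM in paxillin DHT against 119, 115 and 105 CPM in paxillin vehicle, and 139.6, 129 and 109.8 CPM in nonspecific DHT against 99.7, 101 and 96.8 CPM in nonspecific vehicle. Replicate 3 was the lowest library of each group, and the third paxillin DHT library stood level with the highest paxillin vehicle library. DNAJB1 rose by 0.31 ± 0.09 with paxillin siRNA (adjusted p = 0.013) and 0.35 ± 0.10 with nonspecific siRNA (adjusted p = 0.007). The call with paxillin siRNA was lost without paxillin DHT replicate 1 (adjusted p = 0.0854) or paxillin vehicle replicate 3 (adjusted p = 0.0673). DNAJA1, which cooperates with HSPA8, rose by 0.29 ± 0.08 with paxillin siRNA and 0.21 ± 0.08 with nonspecific siRNA. DNAJA2, of the same class, rose by 0.34 ± 0.06 with paxillin siRNA and 0.23 ± 0.06 with nonspecific siRNA. The DNAJA1 call with nonspecific siRNA was lost without nonspecific DHT replicate 1 (adjusted p = 0.197) or any 1 nonspecific vehicle library (adjusted p from 0.0541 to 0.107). DNAJB4, a class B protein close to DNAJB1, had 5.51, 5.51 and 5.48 CPM in paxillin DHT against 8.35, 8.57 and 8.08 CPM in paxillin vehicle, and 4.84, 3.40 and 4.84 CPM in nonspecific DHT against 8.07, 6.20 and 5.53 CPM in nonspecific vehicle. It fell with paxillin siRNA (-0.60 ± 0.15, adjusted p = 0.00359) and with nonspecific siRNA (-0.56 ± 0.16, adjusted p = 0.00897); without nonspecific DHT replicate 2 the nonspecific value had an adjusted p of 0.0548.

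Of the 6 BAG genes, 4 rose under both siRNAs, 0 fell, and BAG4 and BAG6 were not called. The rises were 66.7% of this small family, where 20.1% (paxillin siRNA) and 21.6% (nonspecific siRNA) of all genes tested rose. BAG2, which inhibits the ubiquitin ligase STUB1 (CHIP), had 42.0, 37.3 and 37.4 CPM in paxillin DHT against 27.3, 27.4 and 23.0 CPM in paxillin vehicle, and 41.7, 40.6 and 39.8 CPM in nonspecific DHT against 22.6, 21.5 and 24.1 CPM in nonspecific vehicle. All DHT libraries lay well above all vehicle libraries, and the log2 fold change was 0.59 ± 0.08 with paxillin siRNA (adjusted p = 1.26e-05) and 0.84 ± 0.08 with nonspecific siRNA (adjusted p = 2.46e-07). BAG2 lies on chr6:57172326-57189833 in GENCODE 29, and 42.7% of its exonic length overlaps RAB23 on the opposite strand. Since the strand setting of the counting is not given in the sources used here, the BAG2 level is uncertain; RAB23 itself had 13.9 to 16.4 CPM in paxillin DHT, 15.8 to 16.6 CPM in paxillin vehicle, 14.7 to 17.1 CPM in nonspecific DHT and 14.5 to 16.1 CPM in nonspecific vehicle, and these ranges overlap.

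BAG3, the scaffold that links HSP70 and small HSPs to autophagy and a well known HSF1 target, had 148, 127 and 127 CPM in paxillin DHT against 93.5, 97.5 and 93.3 CPM in paxillin vehicle. With nonspecific siRNA it had 135, 125 and 128 CPM in DHT and 98.4, 86.5 and 91.9 CPM in vehicle. The groups did not overlap, and the rise was 0.50 ± 0.07 with paxillin siRNA (adjusted p = 1.47e-05) and 0.49 ± 0.07 with nonspecific siRNA (adjusted p = 1.99e-05). BAG1, which couples HSP70 to the proteasome and binds the androgen receptor, rose by 0.31 ± 0.07 with paxillin siRNA and 0.46 ± 0.07 with nonspecific siRNA. BAG5, with several BAG domains, rose by 0.34 ± 0.06 with paxillin siRNA and 0.27 ± 0.06 with nonspecific siRNA. The calls of BAG1, BAG2, BAG3, BAG5 and HSPH1 were kept under both siRNAs in each of the 19 alternatives.

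The small HSPs did not move together. HSPB8, the partner of BAG3, had 3.87, 5.08 and 6.21 CPM in paxillin DHT against 7.04, 8.39 and 12.6 CPM in paxillin vehicle. With nonspecific siRNA it had 1.80, 2.53 and 2.92 CPM in DHT and 3.91, 2.52 and 4.29 CPM in vehicle. It was lower in every paxillin DHT library than in every paxillin vehicle library and fell by 0.89 on the log2 scale (SE 0.23, adjusted p = 0.00469), while the nonspecific groups overlapped (-0.54 ± 0.28, adjusted p = 0.133, and -0.51 with adjusted p = 0.0335 with the replicate block). HSPB1 had 747, 535 and 547 CPM in paxillin DHT against 674, 634 and 625 CPM in paxillin vehicle, and 913, 614 and 624 CPM in nonspecific DHT against 607, 494 and 566 CPM in nonspecific vehicle. Replicate 1 was the highest of each group. The value was -0.08 ± 0.14 with paxillin siRNA. The rise of 0.37 ± 0.14 with nonspecific siRNA (adjusted p = 0.0398) lost its call with DESeq2 and with upper-quartile scaling. That call was also lost without nonspecific DHT replicate 1 (adjusted p = 0.321), nonspecific vehicle replicate 2 (adjusted p = 0.162) or nonspecific vehicle replicate 3 (adjusted p = 0.0736). HSPB11, despite its symbol a subunit of the intraflagellar transport machinery, fell with nonspecific siRNA (-0.32 ± 0.10, adjusted p = 0.0112; adjusted p = 0.0736 without nonspecific DHT replicate 1).

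The mitochondrial chaperonin pair rose under both siRNAs. HSPD1 had 994, 934 and 891 CPM in paxillin DHT against 838, 825 and 792 CPM in paxillin vehicle, and 909.8, 878 and 852 CPM in nonspecific DHT against 671, 761 and 737 CPM in nonspecific vehicle. The groups did not overlap; the rise was 0.20 ± 0.07 (adjusted p = 0.0264) with paxillin siRNA and 0.28 ± 0.07 (adjusted p = 0.00276) with nonspecific siRNA. HSPE1, its lid, rose by 0.30 ± 0.08 with paxillin siRNA (adjusted p = 0.00678) and 0.28 ± 0.08 with nonspecific siRNA (adjusted p = 0.0128). HSPA9 (mortalin), the mitochondrial HSP70 that pulls proteins through the inner membrane, was not called in edgeR, at 0.03 ± 0.06 with paxillin siRNA and 0.12 ± 0.06 with nonspecific siRNA, where DESeq2 called it. With paxillin siRNA the HSPD1 call was lost without paxillin DHT replicate 1 (adjusted p = 0.12) or 2 (0.0591) or paxillin vehicle replicate 2 (0.0759) or 3 (0.104), and the HSPE1 call without paxillin vehicle replicate 3 (0.0542).

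Subunits of the cytosolic chaperonin CCT, which folds actin and tubulin, rose by small and similar amounts. CCT2, CCT4, CCT5 and CCT6A rose with paxillin siRNA, by 0.17 to 0.22, and these with CCT3 and CCT7 rose with nonspecific siRNA, by 0.16 to 0.30. TCP1, the remaining subunit of the ring, which the symbol patterns do not catch, rose by 0.31 ± 0.07 with paxillin siRNA and 0.32 ± 0.07 with nonspecific siRNA. CCT4 had 216, 203 and 190.0 CPM in paxillin DHT against 189, 175 and 172 CPM in paxillin vehicle, and 239.7, 227 and 217 CPM in nonspecific DHT against 190.4, 179 and 185 CPM in nonspecific vehicle. Its DHT libraries lay above the vehicle libraries in both, the gap being narrow with paxillin siRNA. CCT8 was at 0.10 ± 0.06 with paxillin siRNA (adjusted p = 0.221) and 0.14 ± 0.06 with nonspecific siRNA (adjusted p = 0.079, and 0.043 with the replicate block). CCT6B, a paralog of CCT6A known from testis, had 24 to 117 counts in a library and fell by 0.81 on the log2 scale with paxillin siRNA (SE 0.20, adjusted p = 0.00398) and by 0.75 with nonspecific siRNA (SE 0.22, adjusted p = 0.0113; 0.0847 and 0.052 if replicate 2 of the nonspecific vehicle or of the nonspecific DHT group was left out).

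With upper-quartile scaling all 4 chaperonin rises with paxillin siRNA lost the call (0.08 for CCT2, 0.10 for CCT4, 0.13 for CCT5 and 0.09 for CCT6A), as did CCT2 (0.09), CCT3 (0.11) and CCT7 (0.08) with nonspecific siRNA. Several chaperonin calls also rested on single libraries. With paxillin siRNA, CCT2, CCT4, CCT5 and CCT6A each lost the call without paxillin DHT replicate 1 (adjusted p from 0.0656 to 0.149) or without paxillin vehicle replicate 2 (0.0637 to 0.124). CCT2 and CCT6A also lost it without paxillin vehicle replicate 1, CCT2, CCT4 and CCT6A without paxillin vehicle replicate 3, and CCT4 and CCT6A without paxillin DHT replicate 2 (0.0506 to 0.129). With nonspecific siRNA, CCT2, CCT3 and CCT7 lost it without nonspecific DHT replicate 1 (0.0598, 0.0977 and 0.1). Each of the other nonspecific libraries was also needed for at least 1 of these 3 calls (0.0502 to 0.0938 without it), while CCT4, CCT5 and CCT6A kept theirs in all 19 alternatives.

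**Figure D3:**
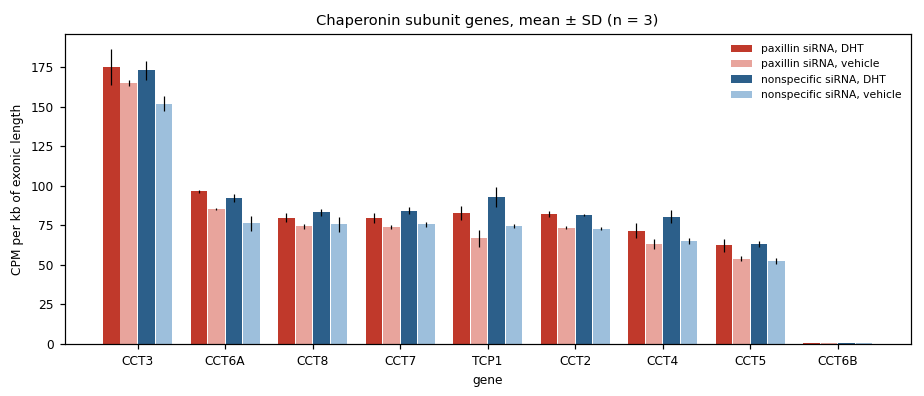
Levels of the chaperonin subunit genes and TCP1 in CPM per kb of exonic length, as group means with SD (n = 3), in paxillin DHT, paxillin vehicle, nonspecific DHT and nonspecific vehicle. CCT3 stands above the others, at 175 in paxillin DHT and 152 in nonspecific vehicle, and CCT6B is near 0.

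DNAJC is the largest and most varied family, with 5 of 22 members rising and 2 falling under either siRNA. The rises were 22.7% of the family, near the 20.1% (paxillin siRNA) and 21.6% (nonspecific siRNA) of all genes tested. The falls were 9.09% of the family, where 17.9% (paxillin siRNA) and 18.9% (nonspecific siRNA) of all genes fell. DNAJC1, a J protein of the endoplasmic reticulum membrane, had 116, 105 and 116 CPM in paxillin DHT against 69.8, 64.7 and 80.3 CPM in paxillin vehicle, and 105, 111 and 130.0 CPM in nonspecific DHT against 71.3, 62.3 and 67.7 CPM in nonspecific vehicle. The groups were far apart, and DNAJC1 rose by 0.65 ± 0.09 with paxillin siRNA (adjusted p = 1.05e-05) and 0.79 ± 0.09 with nonspecific siRNA (adjusted p = 1.24e-06). DNAJC25, also of that membrane, had 15.1, 16.4 and 15.5 CPM in paxillin DHT against 12.2, 11.4 and 10.7 CPM in paxillin vehicle, and 14.1, 17.0 and 17.3 CPM in nonspecific DHT against 10.8, 9.46 and 10.8 CPM in nonspecific vehicle. It rose by 0.45 ± 0.10 with paxillin siRNA and 0.65 ± 0.10 with nonspecific siRNA, and 11.6% of its 50-base words occur in other genes, among them its read-through with GNG10. DNAJC2, the ribosome-bound J protein that works with HSPA14, rose by 0.29 ± 0.09 with paxillin siRNA (adjusted p = 0.0142; 0.1 without paxillin vehicle replicate 1) and 0.34 ± 0.09 with nonspecific siRNA (adjusted p = 0.00532). HSPA14 was not called in the fit without the block, but was called lower with paxillin siRNA with the replicate block (-0.16, adjusted p = 0.0458) and, with upper-quartile scaling, under paxillin siRNA (-0.25, adjusted p = 0.0141) and nonspecific siRNA (-0.21, adjusted p = 0.0396).

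Among the DNAJC genes that fell, DNAJC13 and DNAJC6 act in vesicle traffic. DNAJC13 (RME-8), which acts on endosomes, fell by 0.22 on the log2 scale with paxillin siRNA (SE 0.07, adjusted p = 0.016; 0.109 without paxillin DHT replicate 1) and by 0.38 with nonspecific siRNA (SE 0.07, adjusted p = 0.000268). DNAJC6 (auxilin), which uncoats clathrin vesicles with HSPA8, had 1.67, 2.20 and 3.88 CPM in paxillin DHT against 3.62, 3.79 and 3.26 CPM in paxillin vehicle, and 1.33, 1.44 and 1.27 CPM in nonspecific DHT against 3.18, 3.49 and 3.08 CPM in nonspecific vehicle. The nonspecific groups were 2.42-fold apart, lower in DHT (adjusted p = 0.000783), while the third paxillin DHT library was above all the paxillin vehicle libraries and DNAJC6 was not called there (-0.47 ± 0.23, adjusted p = 0.118). DNAJC18 fell with paxillin siRNA by 0.26 on the log2 scale (adjusted p = 0.0472), a call lost in 11 alternatives, with an adjusted p of 0.143 without paxillin vehicle replicate 1.

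Against the name given to the set, 7 members are known as proteins of the endoplasmic reticulum or its membrane (HSPA13, DNAJC1, DNAJC25, DNAJB12, DNAJB14, DNAJC14 and DNAJC16). This grouping was made after their values were seen, has no test and may be incomplete. DNAJC18, which fell with paxillin siRNA (log2 fold change -0.26), was counted with the other members, and the medians below depend on that choice. HSPA13, DNAJC1, DNAJC25 and DNAJB14 rose under both siRNAs, 4 of the 7, with medians of 0.45 with paxillin siRNA and 0.30 with nonspecific siRNA. For 7 members of mitochondria (HSPA9, HSPD1, HSPE1, DNAJA3, DNAJC11, DNAJC19 and DNAJC30) the medians were 0.10 with 3 rises with paxillin siRNA and 0.22 with 5 rises with nonspecific siRNA. For the other 51 members they were 0.10 with paxillin siRNA and 0.11 with nonspecific siRNA. The share of all genes tested that rose was 20.1% with paxillin siRNA and 21.6% with nonspecific siRNA.

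HSPA13, an HSP70 relative without the peptide-binding domain, had 63.4, 53.2 and 56.7 CPM in paxillin DHT against 45.3, 37.6 and 36.6 CPM in paxillin vehicle, and 69.0, 66.4 and 74.0 CPM in nonspecific DHT against 50.5, 51.4 and 46.1 CPM in nonspecific vehicle. DHT libraries were above vehicle libraries under each siRNA, by 0.54 ± 0.09 with paxillin siRNA (adjusted p = 7.02e-05) and 0.50 ± 0.09 with nonspecific siRNA (adjusted p = 0.000134). DNAJB14 had 35.9, 36.1 and 38.5 CPM in paxillin DHT against 26.0, 21.4 and 22.4 CPM in paxillin vehicle, and 33.2, 31.1 and 34.8 CPM in nonspecific DHT against 28.6, 28.2 and 24.2 CPM in nonspecific vehicle. Its rise was 0.66 ± 0.09 (adjusted p = 7.55e-06) with paxillin siRNA and 0.30 ± 0.09 (adjusted p = 0.0116; 0.0778 without nonspecific vehicle replicate 3) with nonspecific siRNA. The 9 endoplasmic reticulum chaperones that the rule left out had 8 rises under each siRNA, led by DNAJB9 (1.46 ± 0.14 with paxillin siRNA, 1.18 ± 0.15 with nonspecific siRNA) and DNAJC10 (0.85 ± 0.10 with paxillin siRNA, 0.84 ± 0.10 with nonspecific siRNA).

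HSPA12A, a distant HSP70 relative, had 5.11, 5.19 and 5.44 CPM in paxillin DHT against 7.76, 7.15 and 6.70 CPM in paxillin vehicle, and 4.71, 4.14 and 3.97 CPM in nonspecific DHT against 6.11, 5.39 and 6.73 CPM in nonspecific vehicle. Each DHT group lay below its vehicle group, and the log2 fold change was -0.46 ± 0.13 with paxillin siRNA (adjusted p = 0.00853) and -0.51 ± 0.14 with nonspecific siRNA (adjusted p = 0.00641). HSPA2, an HSP70 of germ cells, had 1.02, 0.708 and 1.28 CPM in paxillin DHT against 0.493, 0.474 and 0.399 CPM in paxillin vehicle, or 11 to 39 counts in any library of the series. It rose 2.19-fold (adjusted p = 0.0129; 0.0632 without paxillin DHT replicate 3). HSPA1A, with its few counts, was called higher with nonspecific siRNA at an adjusted p of 0.0499 although the groups overlapped, and that call was lost in 14 alternatives (adjusted p up to 0.313, without nonspecific DHT replicate 1).

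Other genes of the same machinery, in lists that overlap each other, are given for comparison. The list medians with paxillin siRNA were 0.19 for HSP90 and its cochaperones, 0.14 for the prefoldin and mitochondrial lists, 0.52 for the endoplasmic reticulum list and 0.28 for the HSF1 list. With nonspecific siRNA they were 0.26, 0.14, 0.19, 0.51 and 0.31 for HSP90, prefoldin, mitochondria, endoplasmic reticulum and HSF1, beside the medians near 0 over all genes given above. Over all genes tested, 20.1% rose with paxillin siRNA and 21.6% with nonspecific siRNA. Of 22 genes for HSP90 and its cochaperones, 10 rose with paxillin siRNA and 14 with nonspecific siRNA, and 0 fell. CDC37, which loads kinases on HSP90, rose by 0.31 ± 0.07 with paxillin siRNA and 0.50 ± 0.07 with nonspecific siRNA. HSP90AA1 rose by 0.28 ± 0.10 with paxillin siRNA and 0.34 ± 0.10 with nonspecific siRNA, while HSP90AB1 and STUB1 were not called under either. The paxillin groups overlapped for HSP90AA1, with 2249.6, 1841 and 1634 CPM in DHT and 1715, 1494 and 1521 CPM in vehicle. Its nonspecific groups did not overlap. The count of 10 was 4 without paxillin vehicle replicate 3, 5 without paxillin DHT replicate 1 and 3 with upper-quartile scaling; the count of 14 was 9 without nonspecific DHT replicate 1. Of 14 tested genes for mitochondrial import and quality control, 6 rose under each siRNA, GRPEL1, the exchange factor of HSPA9, by 0.40 ± 0.06 with paxillin siRNA and 0.57 ± 0.06 with nonspecific siRNA. With paxillin siRNA that count was 2 without paxillin vehicle replicate 1 and 3 without paxillin vehicle replicate 3 or paxillin DHT replicate 1. Of 12 prefoldin and chaperonin partner genes, 6 rose with paxillin siRNA, and 4 rose and VBP1 fell with nonspecific siRNA (0 falls without nonspecific vehicle replicate 2 or 3 or nonspecific DHT replicate 1). Of 15 further genes bound or induced by HSF1, 6 rose with paxillin siRNA (3 without paxillin vehicle replicate 2) and 10 with nonspecific siRNA (6 without nonspecific DHT replicate 1), while SERPINH1, the collagen chaperone HSP47, fell with paxillin siRNA (-0.75 ± 0.13) and with nonspecific siRNA (-0.70 ± 0.14).

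Paxillin siRNA was tested within each treatment. In DHT, 4 rose and 3 fell, where 6.34% of all genes tested rose and 7% fell, or 13.3% in either direction. In vehicle, 4 rose and 5 fell, where 10.7% of all genes tested rose and 9.78% fell, or 20.5% in either direction. The members called were 10.8% in DHT and 13.8% in vehicle, and the member median was 0.04 in both. With the replicate number as a block, 10 members rose and 8 fell in DHT (27.7%, where 21.6% of all genes were called), and 14 rose and 8 fell in vehicle (33.8%, where 28.3% of all genes were called). With DESeq2 23.1% of members and 17.2% of the genes given an adjusted p were called in vehicle, so whether members were called more or less often than all genes depended on the fit. HSPB8 rose and HSPA4L and HSPA13 fell in both treatments.

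**Figure D4:**
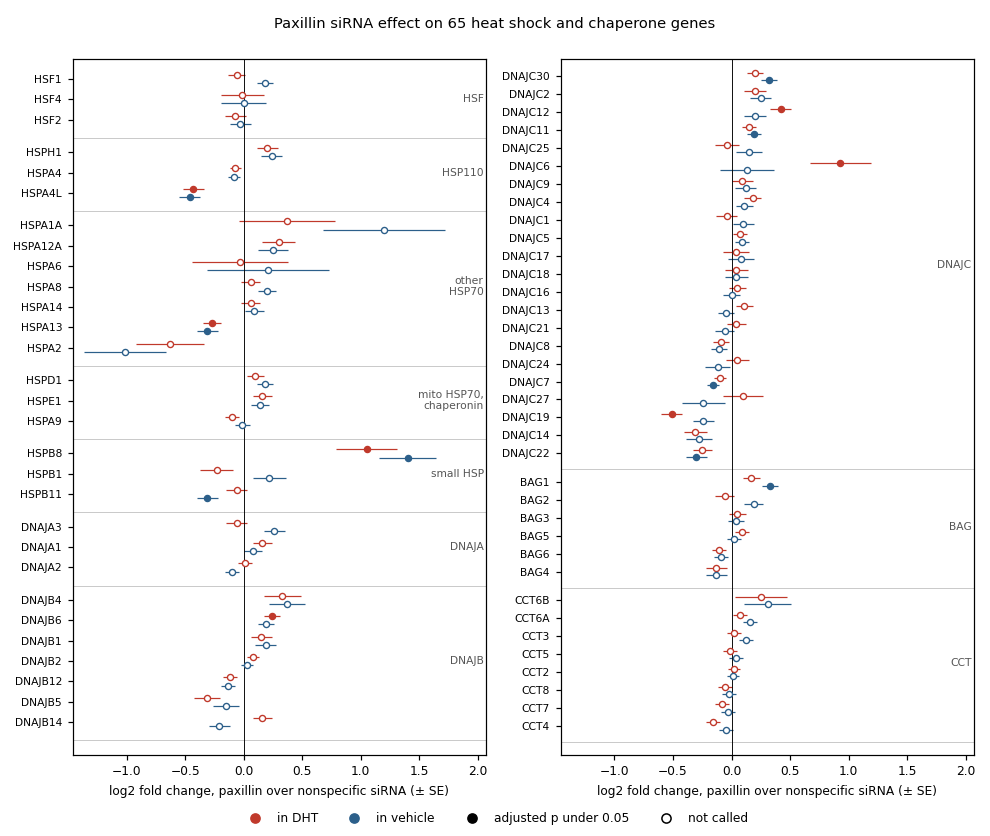
Log2 fold change of paxillin over nonspecific siRNA with its SE (horizontal axis) for each of the 65 members, by family, in DHT in red and in vehicle in blue. Filled points passed an adjusted p of 0.05 (7 in DHT and 9 in vehicle); HSPB8 lies farthest to the right among them, at 1.05 in DHT and 1.40 in vehicle.

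HSPB8 had the largest log2 fold change among the members called in either treatment. Its levels, given above, were higher in each paxillin library than in each nonspecific library of the same treatment. The rise was 2.07-fold in DHT (log2 1.05 ± 0.26, adjusted p = 0.0126) and 2.64-fold in vehicle (log2 1.40 ± 0.24, adjusted p = 0.000722). Replicate 3 was the highest library in all 4 groups. Without nonspecific DHT replicate 1 or paxillin DHT replicate 3 the adjusted p in DHT was 0.0599 or 0.0708, while the vehicle call was kept in all 19 alternatives. HSPB8 lies on chr12:119178642-119221131 in GENCODE 29.

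HSPA4L was lower with paxillin siRNA in DHT (-0.43 ± 0.09, adjusted p = 0.00283) and in vehicle (-0.46 ± 0.09, adjusted p = 0.00128), with no overlap of the groups, and both calls were kept in all 19 alternatives. HSPA13 was lower by a smaller step, -0.27 ± 0.08 in DHT (adjusted p = 0.04) and -0.31 ± 0.09 in vehicle (adjusted p = 0.0188). In DHT the HSPA13 call was lost without any 1 nonspecific DHT library or paxillin DHT replicate 2 or 3 (adjusted p from 0.0611 to 0.17), and in vehicle without nonspecific vehicle replicate 1 or 2 or paxillin vehicle replicate 2 or 3 (0.05 to 0.11).

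Several J proteins were called in DHT alone or in vehicle alone; no such difference passed the interaction test. DNAJC19, a subunit of the motor that imports proteins into mitochondria, had 20.5, 19.4 and 18.6 CPM in paxillin DHT against 26.3, 28.8 and 28.2 CPM in nonspecific DHT. In vehicle it had 21.6, 19.7 and 20.0 CPM with paxillin siRNA and 20.0, 26.0 and 25.5 CPM with nonspecific siRNA, where the shallow first nonspecific library sat with the paxillin libraries. It fell in DHT (-0.51 ± 0.09, adjusted p = 0.00138); the vehicle value was -0.24 ± 0.09 (adjusted p = 0.0799, and 0.0464 with the block). DNAJC12, a cochaperone of the aromatic amino acid hydroxylases, had 16.3, 16.7 and 16.4 CPM in paxillin DHT against 12.8, 10.9 and 13.2 CPM in nonspecific DHT, without overlap, and rose by 0.42 ± 0.09 (adjusted p = 0.00529). In vehicle its value was 0.20 ± 0.09 (adjusted p = 0.154). DNAJC6 rose in DHT by 0.93 ± 0.26 (adjusted p = 0.0246), a call lost without paxillin DHT replicate 3 (0.178) or any 1 nonspecific DHT library (0.0617 to 0.0764). It was also lost with limma-voom and with the compared groups alone. DNAJB6, which keeps polyglutamine proteins from aggregating, rose in DHT by 0.24 ± 0.07 (adjusted p = 0.0218), a call lost without nonspecific DHT replicate 2 or 3 or paxillin DHT replicate 1 or 2 (0.0611 to 0.0959). With the block DNAJB6 was also called in vehicle (0.18, adjusted p = 0.0195), as it was with RLE or upper-quartile scaling and with DESeq2 (0.045 to 0.0488).

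In vehicle BAG1 had 81.9, 91.7 and 95.3 CPM with paxillin siRNA against 67.2, 71.9 and 74.3 CPM with nonspecific siRNA. The groups were apart, and BAG1 rose by 0.33 ± 0.07 (adjusted p = 0.00359); in DHT it had 114, 117 and 101 CPM with paxillin siRNA against 95.3, 95.9 and 103 CPM with nonspecific siRNA, which overlapped (0.17 ± 0.07, adjusted p = 0.112, and 0.0495 with the block). DNAJC30, a mitochondrial J protein, had 43.2, 42.5 and 44.1 CPM with paxillin siRNA in vehicle against 31.6, 36.2 and 35.9 CPM with nonspecific siRNA in vehicle. It rose by 0.32 ± 0.07 (adjusted p = 0.00337), and these BAG1 and DNAJC30 calls were kept in all 19 alternatives. DNAJC11, which is tied to the folds of the inner mitochondrial membrane, rose by 0.19 ± 0.06 (adjusted p = 0.0329; 0.0515 to 0.149 without nonspecific vehicle replicate 2 or paxillin vehicle replicate 2 or 3). That call was also lost with the compared groups alone. HSPB11 fell by 0.31 on the log2 scale, DNAJC22 by 0.30 and DNAJC7, which binds HSP70 and HSP90, by 0.16. Each of those 3 falls was lost without nonspecific vehicle replicate 2 or 3 or paxillin vehicle replicate 1 or 3 (adjusted p from 0.0561 to 0.182), and that of DNAJC7 also without each other library except nonspecific DHT replicate 1 (0.0511 to 0.121). The DNAJC7 call was lost too with the compared groups alone and with no filter on low counts.

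With the block, DNAJC30, DNAJC11 and DNAJC22 were called in DHT too (adjusted p = 0.0311, 0.048 and 0.00423). Among the further members called with the block were HSPH1 and HSPB1. HSPH1 was higher with paxillin siRNA by 0.20 in DHT and 0.23 in vehicle with the block (adjusted p = 0.00873 and 0.00226). HSPB1 was lower by 0.23 on the log2 scale in DHT (-0.23, adjusted p = 0.0347) and higher by 0.22 in vehicle (adjusted p = 0.0345) with the block. Neither gene was called in the main fit, which has no block. With no filter on low counts, both were called in both treatments. HSPH1 was also called in both treatments without nonspecific DHT replicate 1, and in vehicle with the compared groups alone. HSPB1 was also called in DHT without paxillin DHT replicate 1.

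**Figure D5:**
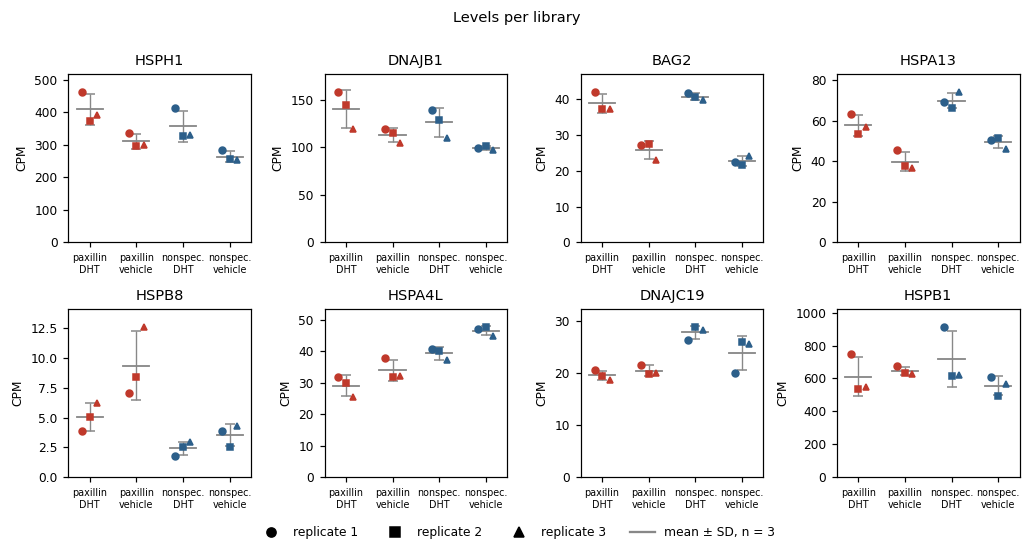
CPM of 8 members in each of the 12 libraries (vertical axis from 0), by group, with a symbol for each replicate number and the group mean with its SD in grey (n = 3). HSPH1, DNAJB1, BAG2 and HSPA13 are higher in DHT than in vehicle, HSPB8 is higher and HSPA4L lower with paxillin siRNA, and replicate 1 of HSPB1 is the highest library of each group.

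No member was called for the interaction, the test of whether the DHT response differed between the siRNAs, in edgeR's quasi-likelihood test, DESeq2 or limma-voom. Of all genes tested, 0.0496% were called at the adjusted p. At the looser threshold of an unadjusted p under 0.05 there were 6 members. The share of all genes at that looser threshold is not given here, so these 6 have no background beside them. In order of p they were DNAJB14 (log2 difference of the DHT responses, paxillin minus nonspecific, 0.36 ± 0.12), DNAJA3, a mitochondrial class A J protein (-0.33 ± 0.13), HSF1 (-0.24 ± 0.10), HSPB1 (-0.45 ± 0.19), DNAJC6 (0.80 ± 0.35) and BAG2 (-0.25 ± 0.11). Their adjusted p ran from 0.412 to 0.542 in edgeR. With no filter on low counts, HSPB1 was called (-0.46, adjusted p = 0.00328). These tests do not show that the DHT responses of the 65 genes were alike.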

How the data were processed

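RNA of 12 C4-2 libraries in 4 groups of 3 was sequenced with a TruSeq Stranded mRNA kit, per the labels. The authors deposited whole-number counts per gene symbol and library, taken as raw. Per the submitters' processing notes, the tools were STAR 2.5.2b, Trimmomatic 0.36 and, from Subread 1.5.0p3, featureCounts, with GRCh38. The sources used here give neither the annotation release, nor the strand setting, nor the treatment of reads that map to several places.

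Counts were fitted in R 4.3.3 with edgeR 4.0.16 (quasi-likelihood test, TMM scaling, filterByExpr with minimum count 10 and minimum total 15, 4 group means, all 12 libraries). A call needed an adjusted p under 0.05 (Benjamini-Hochberg, over 16115 genes). CPM are counts scaled to the TMM-scaled totals, and the SE is the log2 fold change divided by the square root of F. Floors of 3 counts cover counting error only. The test was tried on simulated counts before use. In these, 50 of the 16115 genes were changed at each fold size, in a single group, with no effect of replicate number. Of simulated 1.25-fold changes it called 26% to 36% in the 4 comparisons of groups and 4% for the interaction. For the interaction it called 42% of 1.5-fold changes. Small changes can thus go uncalled. The real DHT comparisons called 38% (paxillin siRNA) and 40.5% (nonspecific siRNA) of all genes, far more than were changed here. The simulated rates may therefore not hold for them. Upper-quartile and RLE scaling, a fit without the filter, a replicate block, the compared groups alone, DESeq2 1.42.0, limma-voom 3.58.1, an adjusted p of 0.01 and leaving out each library were the alternatives.

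Replicate numbers come from the labels. Over 10701 genes of at least 5 CPM, deviations from group means correlated at 0.144 to 0.482 for the 18 same-numbered pairs and at -0.426 to 0.213 for the 36 others. Same-numbered libraries thus tended to deviate together. The main fit does not use this pairing. The replicate number entered as a block only in the alternative fit named above. Replicates differed by more than sampling noise (chi-square per degree of freedom 8.03 to 25), and each was counted as 1 sample.

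For each comparison the text names up to 5 rises and 5 falls, taken by size from called members that averaged 5 CPM or more in a group, a panel of well known members, up to 2 rises and 2 falls per outside list, and PXN; others are named as chosen after their values were seen, namely HSPA2, HSPA6, HSPA14, HSF4, DNAJA2, DNAJA3, DNAJC2, DNAJC6, DNAJC24, DNAJB2, BAG4, BAG5, BAG6, CCT6B and the other chaperonin subunits. The members and lists were chosen with earlier results of these data known. Coordinates and exonic lengths are from GENCODE 29 (GRCh38), promoter sequences from RefSeq (GRCh38.p14).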

Additional observations from a re-analysis of the deposited data

How the results depend on the processing

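The number of members called for DHT with paxillin siRNA was 30, and it was 16 at an adjusted p under 0.01 and 19 to 30 when single libraries were left out (19 without paxillin DHT replicate 1, or 29.2% of members beside 31.1% of all genes). For DHT with nonspecific siRNA it was 34, 20 at the stricter threshold and 27 to 35 when single libraries were left out (27 without nonspecific DHT replicate 1, or 41.5% of members beside 33.7% of all genes). For paxillin siRNA in DHT it was 7, 11 with no filter on low counts, 18 with the replicate block, 3 at the stricter threshold and 4 to 9 when single libraries were left out (4 without nonspecific DHT replicate 2 or 3 or paxillin DHT replicate 3). For paxillin siRNA in vehicle it was 9, 15 with no filter, 22 with the replicate block, 15 with DESeq2, 4 at the stricter threshold and 5 to 14 when single libraries were left out (5 without nonspecific vehicle replicate 2 or paxillin vehicle replicate 3, 14 without paxillin DHT replicate 3). For the interaction it was 0, and 1 with no filter. The block gave 33 and 39 calls for DHT with paxillin and with nonspecific siRNA. The cause of these moves was not tested. Calls kept in all 19 alternatives that use the 0.05 threshold were 15 of 30, 18 of 34, 3 of 7 and 4 of 9 in the same order of comparisons. Depth limits HSPA1A, HSPA2 and HSPA6, which had 3 to 39 counts in a library.

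Signs that changed belonged to log2 fold changes near 0 that were not called. With upper-quartile scaling DHT with paxillin siRNA gave -0.00 for HSF1, -0.06 for HSPA9, -0.03 for HSPA4 and -0.05 for STUB1, and DHT with nonspecific siRNA gave -0.03 for HSPA4. With no filter, DHT with paxillin siRNA gave 0.01 for HSPA8, DHT with nonspecific siRNA 0.01 for HSF2 (0.00 with limma-voom), and paxillin siRNA in vehicle 0.01 for HSPA9. Leaving out single libraries gave ranges across 0 of -0.08 to 0.05 for HSPA8 and -0.25 to 0.01 for HSPB1 (DHT with paxillin siRNA), -0.08 to 0.04 for HSF2 (DHT with nonspecific siRNA), -0.02 to 0.11 for HSPA8 and -0.03 to 0.09 for BAG3 (paxillin siRNA in DHT), and -0.09 to 0.03 for HSF2 and -0.04 to 0.02 for HSPA9 (paxillin siRNA in vehicle).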

Other observations

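Replicate number 1 gave the highest CPM in all 4 groups for CCT3, CCT4, CCT5, DNAJA1, DNAJC14, HSPA1A, HSPA8, HSPB1 and HSPH1, 9 of the 65 members (13.8%), where 5.58% of the 16115 genes tested showed the same. HSPB1 had 747 CPM in the first paxillin DHT library beside 535 and 547 CPM in the others, and 913 CPM in the first nonspecific DHT library beside 614 and 624 CPM. Replicate 3 was the lowest in all 4 groups for DNAJA2, DNAJB1 and HSF2 (4.62% of members, near the 4.19% of all genes). It was the highest for HSPB8 (1.54% of members, 3.98% of all genes). The labels do not say what the replicate number stands for. These genes were singled out after their values were seen.

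Paxillin siRNA in vehicle also moved some genes outside the members that work beside them. TRAP1, the mitochondrial HSP90, rose by 0.44 ± 0.07 (adjusted p = 0.000434, edgeR), GRPEL1 by 0.31 ± 0.06 (adjusted p = 0.00108) and CRYAB, a small HSP of muscle and lens, by 0.93 ± 0.20 (adjusted p = 0.0028). In DHT, TRAP1 rose by 0.24 ± 0.07 (adjusted p = 0.0339) and CRYAB was at 0.37 ± 0.18 (adjusted p = 0.177). Over all genes tested, 6.34% rose in DHT and 10.7% in vehicle. Of the HSP90 list, 2 of 22 genes rose in DHT and 4 in vehicle, with list medians of -0.00 and 0.12. Of the mitochondrial list, 2 of 14 rose in DHT and 3 in vehicle, with medians of -0.04 and 0.07. These counts are of a few genes, and no test of the lists was run. In the prefoldin list and the endoplasmic reticulum list, 0 genes were called in either treatment. The counts of the HSP90 and mitochondrial lists in DHT, TRAP1 included, were 0 when nonspecific DHT replicate 2 or 3 or paxillin DHT replicate 1 or 2 was left out (for the mitochondrial list also paxillin DHT replicate 3), and 1 without paxillin vehicle replicate 2 (for the HSP90 list also paxillin DHT replicate 3). The HSP90 count of 4 in vehicle was 1 without nonspecific vehicle replicate 2 or paxillin vehicle replicate 3, and 2 without any other vehicle library except nonspecific vehicle replicate 1. CRYAB was the 1 gene of 15 called in the HSF1 list in vehicle, where 0 were called in DHT. CRYAB overlaps HSPB2 on the opposite strand over 20.6% of its exonic length, and TRAP1 overlaps DNASE1 over 29.3%. Their levels are uncertain for that reason. Other genes named here share this limit, among them DNAJC11 (27.9%, with THAP3) and HSPE1 (14.2%, with HSPD1).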
